A study of Caenorhabditis elegans with 2 samples.

Results

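X chromosome peaks outside promoters are SKN-1::eGFP binding regions on chromosome X of Caenorhabditis elegans that did not lie at the start of a protein-coding gene. They were taken from the optimal list of reproducible ChIP-seq peaks on genome build ce11. A peak was a member when its summit lay on X, in no window from 1000 bp upstream to 200 bp downstream of a protein-coding transcript start, and not between 500000 and 3000000, a segment where peaks were dense. Of 3484 optimal peaks, 682 were on X and 260 were members. The other X peaks were 248 in promoter windows and 174 within the segment, 98 of these also outside promoters. The autosomes held 827 peaks outside promoters and 1975 inside them. Within the optimal list, position and annotation chose the members, not their signal or sequence. The list itself was thresholded by the authors, and the segment was left out because of the peak density measured in it.

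Chromatin was immunoprecipitated from whole L1 larvae of strain OP178, which carries the transgene wgIs178 expressing skn-1 fused to eGFP and the allele unc-119(ed3) III. The labels give a mixed-sex population and 2 biological replicates, and there was no other group. The larvae were not sorted by tissue, the tagged protein came from a transgene insertion, and ChIP from worms without the tag was not analysed here. The part of antibody background in any peak was not tested. With 1 group, no difference between conditions could be tested, and the precision is given as counting intervals, as ranks in each replicate and as recovery in both.

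SKN-1 is the C. elegans relative of the mammalian NRF factors, a transcription factor that binds DNA as a monomer and is known for detoxification, proteostasis and, in the embryo, endoderm specification. Chromosome X of the worm is also the site of dosage compensation, in which a condensin-containing complex is loaded at recruitment sites (rex sites) on both X chromosomes of hermaphrodites and lowers transcription. A short sequence called the MEX motif is known from these sites, and the gene xol-1, which sets male or hermaphrodite fate and the state of dosage compensation, is itself on X.

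The 8 strongest members are shown first because the strong end of the set carries most of the MEX motif described below. Each is the 151 bp centred on the summit, read from the ce11 genome on the plus strand and named by the nearest protein-coding gene. Capitals mark GCGCAGGG, the core letters of the MEX motif, or TGTCAT and TATCAT, the G and A forms of the SKN-1 core, on either strand, so that CCCTGCGC, ATGACA and ATGATA are the same motifs read from the other side.
W02H3.3, chrX:11094137-11094287, plus strand: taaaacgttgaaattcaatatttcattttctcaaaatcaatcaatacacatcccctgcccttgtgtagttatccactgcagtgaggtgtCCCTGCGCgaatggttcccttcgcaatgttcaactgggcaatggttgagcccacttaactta
ZK899.6, chrX:9465778-9465928, plus strand: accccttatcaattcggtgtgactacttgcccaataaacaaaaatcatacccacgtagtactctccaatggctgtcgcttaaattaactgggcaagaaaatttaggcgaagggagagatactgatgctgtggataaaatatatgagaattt
F20B6.9, chrX:4209203-4209353, plus strand: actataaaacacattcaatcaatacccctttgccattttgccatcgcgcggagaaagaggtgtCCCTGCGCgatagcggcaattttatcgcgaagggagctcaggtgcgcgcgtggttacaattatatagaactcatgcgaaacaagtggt
F55G7.5, chrX:11937457-11937607, plus strand: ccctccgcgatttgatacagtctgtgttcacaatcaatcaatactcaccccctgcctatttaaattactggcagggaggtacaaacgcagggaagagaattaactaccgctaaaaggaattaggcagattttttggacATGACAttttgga
F22H10.2, chrX:16682037-16682187, plus strand: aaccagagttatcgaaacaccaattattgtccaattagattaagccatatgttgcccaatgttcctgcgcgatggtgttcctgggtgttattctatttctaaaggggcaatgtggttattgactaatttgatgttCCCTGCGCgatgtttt
F19H6.5, chrX:12363114-12363264, plus strand: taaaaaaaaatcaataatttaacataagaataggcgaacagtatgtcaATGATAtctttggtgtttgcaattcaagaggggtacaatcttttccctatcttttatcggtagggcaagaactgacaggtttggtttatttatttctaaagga
K02D3.1, chrX:13700778-13700928, plus strand: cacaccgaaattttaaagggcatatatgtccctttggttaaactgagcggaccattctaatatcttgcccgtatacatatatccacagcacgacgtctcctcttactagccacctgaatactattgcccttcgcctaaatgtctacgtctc
nhr-120, chrX:6642832-6642982, plus strand: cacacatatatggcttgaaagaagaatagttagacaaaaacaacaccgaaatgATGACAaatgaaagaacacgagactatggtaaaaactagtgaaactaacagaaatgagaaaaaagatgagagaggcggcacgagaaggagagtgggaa
The windows at W02H3.3, F20B6.9 and F22H10.2 held the MEX core, and those at F55G7.5, F19H6.5 and nhr-120 held a SKN-1 core. The windows at ZK899.6 and K02D3.1 held neither as an exact match. These windows and that at F55G7.5 held the MEX core with 1 mismatch, by a search added after the data were seen. At F55G7.5 the called region ended at 11937579, before the marked SKN-1 core.

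The strong members ranked high in both replicates. Signal values are the authors' own per-peak values, have no unit given in the sources, and are used here only to order peaks within a list. The member at W02H3.3 had a signal of 353 and was peak 28 of the optimal list, region 40 of replicate 1 and region 23 of replicate 2. The member at ZK899.6 had a signal of 330 and ranks of 55 and 26 in replicates 1 and 2. The member at F20B6.9 had a signal of 316 and ranks of 37 and 39. Each of these 3 was therefore within the first 60 regions of both replicates' lists of 30000. The member at F55G7.5 ranked 107 and 30, that at F22H10.2 ranked 50 and 53, and that at F19H6.5 ranked 38 and 57. K02D3.1 ranked 35 and 74, and nhr-120, a nuclear hormone receptor gene, ranked 96 and 46. The 2 remaining members of the first 10 were an intron of mom-1, a Porcupine-type gene of Wnt secretion, at 36 and 100, and a site near T27A8.7 at 119 and 72. All of these were among the 100 strongest peaks of the optimal list. Of these first 10, only the region in the mom-1 intron had the list's usual width of 296 bp. The others were 76 to 255 bp wide, and some were narrower than the 151 bp motif window. A width other than the usual was found in 11 of all 260 members (4.23%) and in 4.51% of all optimal peaks.

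A few members were very strong and most were weak. Of the 260, 10 were among the 100 strongest optimal peaks (3.85%, Wilson 95% interval 2.10 to 6.93). The same held for 8 of 827 autosomal peaks outside promoters (0.967%) and 4 of 248 X promoter peaks (1.61%). It held for 2.87% of all optimal peaks, a share within the members' interval, and for 2.89% of autosomal promoter peaks. Among the left-out segment peaks outside promoters it held for 12 of 98 (12.2%). The median rank of the members was 2254 of 3484, against 1991 for autosomal peaks outside promoters and 1856 for X promoter peaks, and the median signal was 48.2 with a range of 33.1 to 353. The optimal list was cut into 5 equal groups by signal, so the strongest group held 20.0% of all optimal peaks. It held 30 members (11.5%), 93 autosomal peaks outside promoters (11.2%) and 45 X promoter peaks (18.1%). It also held 467 autosomal promoter peaks (23.6%) and 29 of the left-out segment peaks outside promoters (29.6%). These shares were not tested against each other.

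The other members among the 25 strongest lay in varied settings. The member 4877 bp upstream of xol-1 had rank 128 in the optimal list and 250 and 88 in the replicates. A member in the coding sequence of pks-1, a polyketide synthase gene, had rank 197 and replicate ranks of 143 and 338. A member 3484 bp upstream of col-185, a collagen gene, had rank 292, with 424 and 190 in the replicates. At lin-14, which encodes a nuclear factor that times larval development, the strongest of several intronic members had rank 362, with 553 and 293. The regions near egrh-1, an EGR-family zinc finger gene, and rsd-3, a gene of systemic RNA interference, had ranks of 460 and 463. The members near taf-3, which encodes a subunit of the general factor TFIID, and nfki-1, an IkB homologue, had ranks of 426 and 488. Those near F09C8.1, F43E12.1, ZK470.2, C30E1.4, F09A5.3, tmem-184 and the nuclear receptor gene nhr-17 ranked between 258 and 563.

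Replicate support fell steeply with signal. A region of the full list of 30000 lay within 100 bp of 242 members in replicate 1 (93.1%) and of 253 in replicate 2 (97.3%), and every member had one in at least 1 replicate. Those lists also hold background regions, so a stricter count used the 3484 strongest regions of each replicate. By that count 139 of 260 members were recovered in both replicates (53.5%, 47.4 to 59.4), against 65.2% of all optimal peaks, 56.8% of autosomal peaks outside promoters and 62.1% of X promoter peaks. In 5 groups of 52 members ordered by signal, the counts recovered in both were 49, 44, 31, 14 and 1. The weakest group, with ranks of 2984 to 3472, thus had 1 of 52 recovered in both. The optimal list's order draws on the same reads as the replicates, so this fall is a description.

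The ranks of the 2 replicates were loosely related. Over the 235 members with a region in both full lists, Spearman's rho was 0.443, against 0.538 over the 3229 such optimal peaks, and 130 members ranked higher in replicate 1 and 105 in replicate 2. The replicates share 1 control alignment and one genome, so the points are not independent. The 5 largest differences were at F46F2.5 (rank 21712 in replicate 1 and 2382 in replicate 2), F13E6.1 (20595 and 2178), ifa-3 (19913 and 1729), F34H10.4 (18669 and 907) and hil-3 (2028 and 19403). In 4 of these the region was strong in replicate 2 and far down the list of replicate 1. Summits were close in position, with a median offset of 17.5 bp to replicate 1 and 11 bp to replicate 2. When the rule was applied to the 3484 strongest regions of replicate 1 alone, 254 regions met it, and 191 of them (75.2%) had a member within 100 bp. Replicate 2 alone gave 260, of which 193 (74.2%) had one.

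**Figure D1:**
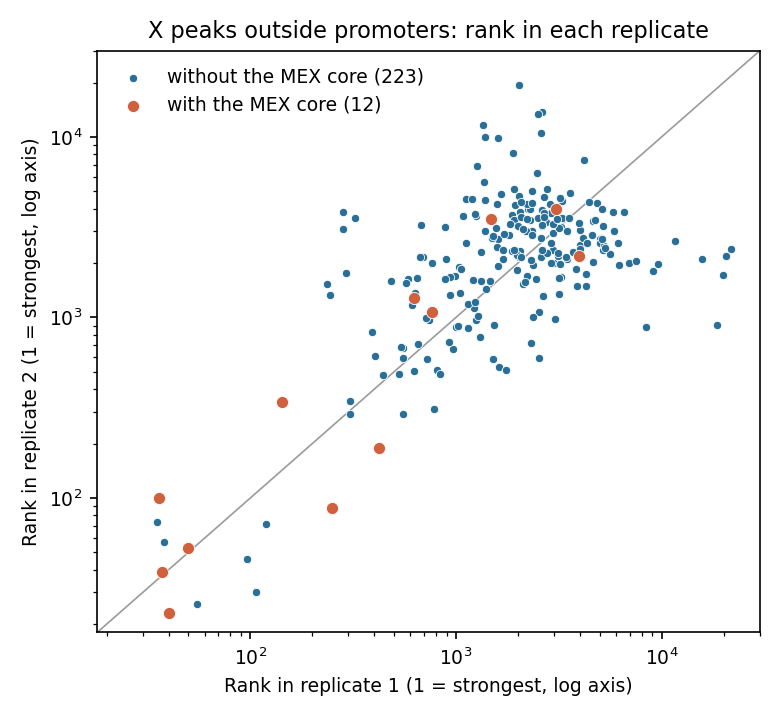
Rank of each X peak outside promoters in the full list of replicate 1 (x axis) and replicate 2 (y axis), both on log axes with 1 as the strongest region; the line marks equal ranks. The 235 members with a region in both lists are drawn, and 12 of them, in orange, hold the MEX core. The orange points lie at both ends of the range, with 4 of them at rank 100 or better in both replicates.

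Members were spread along the chromosome. There were 22.0 per Mb of sequence outside promoters (exact Poisson interval 19.4 to 24.8, 260 over 11.8 Mb), against 13.7 per Mb on the autosomes together (12.8 to 14.7). The autosomes ranged from 9.64 on V to 18.4 on III (15.9 to 21.2), and the left-out segment of X held 48.7 (39.5 to 59.3). These intervals treat peaks as independent and cover counting only. Between 3 and 18 Mb, the bins of 1 Mb held 10 to 28 members each. Among these bins the lowest density was 12.8 per Mb, between 7 and 8 Mb, and the highest was 36.9, between 13 and 14 Mb. The bin from 0 to 1 Mb, part of which was left out, held 3 members at 6.97 per Mb. Of pooled-list regions, 8.34% of those on X outside promoters entered the optimal list (260 of 3118), against 12.6% of all pooled regions and 6.15% of autosomal regions outside promoters.

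Peaks close to the edges of the rule show what it separates. The member at mgrn-1 lay 7 bp outside a promoter window (signal 41.1), that at C01C4.3 lay 8 bp outside (signal 58.0), that at ZK470.2 lay 11 bp outside (signal 120), that at M163.11 lay 19 bp outside (signal 48.5) and that at dlg-1, a Discs large gene, lay 21 bp outside (signal 35.6). Just inside were peaks at ain-1 (9 bp, signal 65.4), nhr-3 (17 bp, signal 92.2), F09C8.2 (33 bp, signal 108), C16B8.3 (36 bp, signal 37.7) and ZK470.2 (38 bp, signal 60.9). In all, 12 members were within 100 bp of a window edge and 50 within 500 bp. At the 3 Mb edge, the peak at Y41G9A.17 lay 2907 bp inside the segment with a signal of 341 and rank 31, and was therefore not a member. The nearest members beyond it were at M02F4.2 (signal 96.4) and cnnm-3 (signal 53.2). Only 3 members lay left of 0.5 Mb, near F38G1.3, nrde-3 and M02E1.3.

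Most members lay between genes. The summit was intergenic in 136 (52.3%, 46.2 to 58.3), in an intron in 77 (29.6%), in a gene of another type in 38 (14.6%, 10.8 to 19.4), in coding sequence in 5 and in a UTR in 4. A base annotated both as intron and as a gene of another type was counted as intron. Intergenic bases made up 37.5% of X sequence outside promoters, intronic bases 32.7% and coding bases 22.0%, whereas 1.92% of the members had a summit in coding sequence. Of the autosomal peaks outside promoters, 54.5% were intergenic, 34.3% intronic and 6.53% in genes of another type. The sequence there differed too, with 27.4% intergenic, 37.7% intronic and 26.6% coding bases. The intergenic gaps were long, with a median of 7446 bp (6357 to 8704) against 5872 bp around autosomal peaks. Of the 136, 18 lay between convergent genes (13.2%), where neither neighbour starts, against 6.89% on the autosomes. Of the 77 intronic members, 30 were in a first intron (39.0%), against 42.6% on the autosomes.

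**Figure D2:**
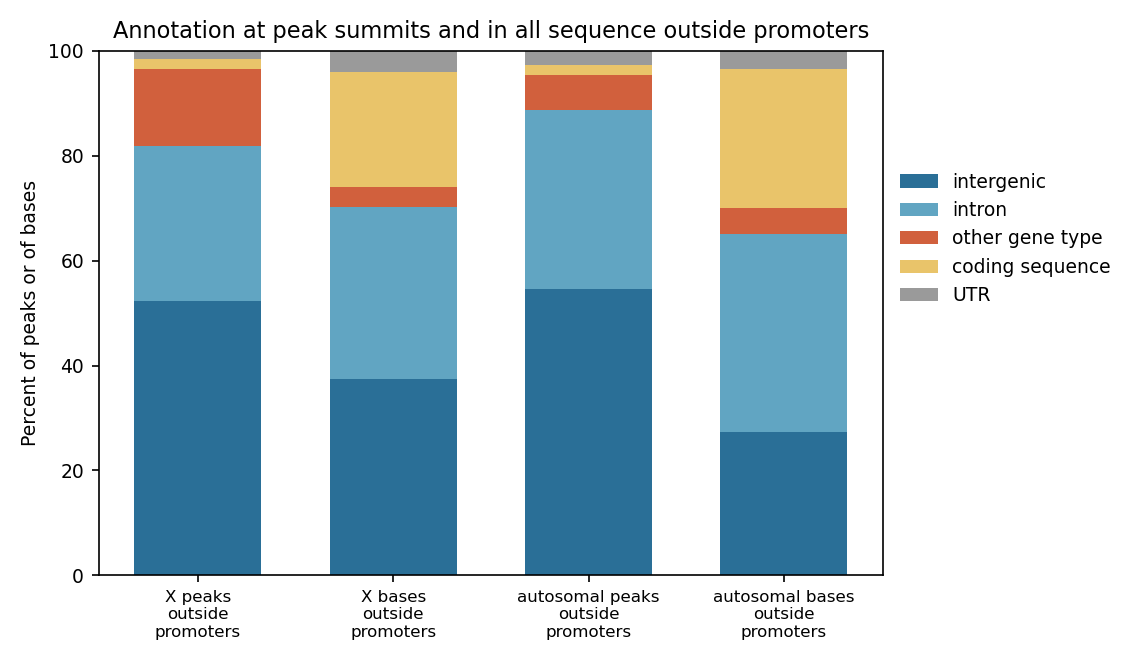
Percent of peak summits, and of all bases outside promoter windows, in each annotation class, for X without the 0.5 to 3 Mb segment and for the autosomes. Coding sequence holds 22.0% of X bases and 1.92% of X peaks, while genes of another type hold 3.74% of X bases and 14.6% of X peaks.

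The coding-sequence members beyond that in pks-1 were at ZK470.2 (rank 1840), nhr-3 (2214), the overlapping R07A4.3 and R07A4.4 (2438) and nhr-17 (3024). The UTR members were at T14G8.3 (rank 1563), ZK470.2 (2673), ergi-2 (2870) and mxl-3 (3369), the last a MAX-like bHLH gene. The pks-1 member was the single strong one among these 9, and it was also the farthest of all members from a coding start, 15197 bp from that of C41A3.2. The strongest member in a gene of another type, at rank 488, lay in a pair of ncRNA genes upstream of nfki-1.

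Transfer RNA genes, which RNA polymerase III transcribes from short internal promoters, lay close to many members. A tRNA gene was within 200 bp of 56 of 260 summits (21.5%, 17.0 to 26.9), against 151 of all 3484 optimal peaks (4.33%). The counts were 53 of 827 autosomal peaks outside promoters (6.41%) and 11 of 248 X promoter peaks (4.44%). Among the left-out segment peaks outside promoters the count was 7 of 98 (7.14%). The sequence available also differed, since 0.769% of X bases outside promoters and 0.183% of autosomal ones lay within 200 bp of a tRNA gene. Counted per gene, 72 of 256 tRNA genes on X outside the segment had an optimal summit within 200 bp (28.1%, 23.0 to 33.9), and 80 of 336 on the autosomes did (23.8%, 19.6 to 28.6). The intervals of these per-gene shares overlapped. Of the 56 members, 21 had an intronic summit, 18 were in a gene of another type and 17 were intergenic.

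The tRNA members resembled the other members in median rank. Their best rank was 717, near M02F4.2, where the replicate ranks were 839 and 485, and the next were near R11.4 (770), srd-43 (777), in an intron of sulp-3 (790), and near C04A11.5 (889). Their median rank was 2246, against 2257 for the other 204 members. Of the 56, 38 were among the strongest regions of both replicates (67.9%), against 101 of the other 204 (49.5%) and 65.2% of all optimal peaks. TGTCAT was in 2 of their summit windows (3.57%) and in 39 of the other 204 (19.1%). The MEX core was in 0 of 56, which allows a share of up to 5.36%. In the 5 signal groups there were 7, 14, 13, 14 and 8 tRNA members, so they were not concentrated at the strong end. Reads from tRNA genes can map to several near-identical copies, and how the authors treated such reads is not given in the sources used here.

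Many members lay far from any protein-coding start. The median distance to the nearest protein-coding start was 2325 bp (2050 to 2572), against 1894 bp (1762 to 1976) for autosomal peaks outside promoters. Of the members, 148 were more than 2000 bp away (56.9% against 46.1%) and 44 more than 5000 bp away (16.9% against 10.4%), and 145 lay on the upstream side. Beyond the pks-1 member, the farthest were near T24D5.1 (11003 bp), got-2.2 (9568 and 9367 bp) and nmur-1 (9378 bp).

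**Figure D3:**
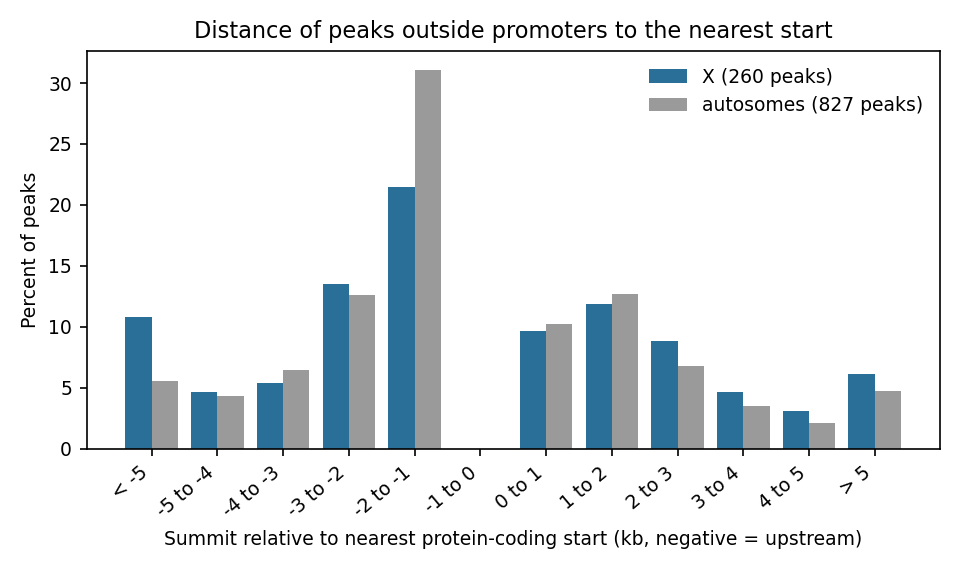
Percent of peaks outside promoters by the position of the summit relative to the nearest protein-coding start, in kb with negative values upstream, for X (260 peaks, blue) and the autosomes (827 peaks, grey). The interval from -1 to 0 kb is empty because the rule removes it; 10.8% of X peaks and 5.56% of autosomal peaks lay more than 5 kb upstream.

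The nearest gene was seldom bound at its own promoter. It had an optimal peak in its promoter window for 73 of 260 members (28.1%, 23.0 to 33.8), against 27.9% of autosomal peaks outside promoters. The share over all optimal peaks was 75.2%, which counts promoter peaks whose own promoter is the one bound. None of the 10 strongest members had a bound nearest promoter, and xol-1 and col-185 did. The members had 197 different nearest genes, of which 39 were bound at the promoter.

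Some genes had several members. Of the 197 genes, 158 had 1 member, 25 had 2, 10 had 3, and 4 had more. The gene mdl-1, which encodes a MAD-like bHLH protein, was nearest to 7, with ranks of 708 to 3342 and distances of 720 to 7992 bp. At lin-14 there were 6, with ranks of 362 to 3290, and at C30E1.4 there were 5, with ranks of 448 to 2918. The promoters of mdl-1 and lin-14 were bound and that of C30E1.4 was not.

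Close groups accounted for part of this. Another optimal summit lay within 2000 bp of 81 members (31.2%, 25.8 to 37.0), against 33.1% of autosomal peaks outside promoters and 14.9% of X promoter peaks. The share was 23.8% over all optimal peaks and 48.0% among the left-out segment peaks outside promoters. With members joined only to other members, at gaps of up to 2000 bp, 192 stood alone, 42 formed 21 pairs, and 26 formed 7 longer runs. The 5 members of a run in lin-14 spanned 3757 bp (chrX:11470480-11474237). A run of 5 in the 23880 bp gap at C30E1.4 spanned 3208 bp, and a run of 4 between rsd-3 and Y102F5A.1 spanned 2352 bp. Runs of 3 were at nhr-1 (2575 bp) and F49E2.5 (2010 bp), among others. With labelled fragments of 150 to 350 bp, members closer than that share reads and are not independent.

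The MEX core was most frequent at the strong end. GCGCAGGG, searched on both strands within 75 bp of the summit, was in 13 of 260 members (5.0%, 2.94 to 8.37) and in 0 of 259 windows taken 1000 bp away, which allows up to 1.16%. It was in 0.689% of all optimal peaks, 2 of 827 autosomal peaks outside promoters (0.242%, 0.0663 to 0.877) and 2 of 248 X promoter peaks (0.806%). Of 151 bp windows tiled over X outside promoters, 47 of 78410 held it (0.0599%), and 0.0394% of the autosomal tiles did. Among the 98 left-out segment peaks outside promoters, 5 held it (5.10%). Counts in the 5 signal groups were 9, 0, 2, 1 and 1, and 7 of the 25 strongest members held it. The match lay a median of 19.5 bp from the summit. A match is a string of letters and not a measured site of dosage compensation, and no such factor was assayed here.

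Seen from the sequence, bound copies were mostly on X. Of 53 copies of GCGCAGGG on X outside promoters and outside the segment, 15 had an optimal summit within 75 bp (28.3%). In the segment this held for 7 of 14 copies, and in the X promoters for 2 of 14. On the autosomes outside promoters it held for 2 of 164 (1.22%), and in autosomal promoters for 1 of 69. In the full lists the counts for the 53 were 18 in replicate 1 and 18 in replicate 2, and those for the 164 were 8 and 9. In each replicate the share of copies with a region was thus higher on X, without a test.

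The 13 members with the core are shown with the bases around one copy, oriented so that the core reads GCGCAGGG and is in capitals, to let the surrounding letters be compared. Positions are ce11, and they run from the strongest to the weakest member.
W02H3.3, chrX:11094214-11094244, minus strand: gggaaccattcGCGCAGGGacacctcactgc
F20B6.9, chrX:4209254-4209284, minus strand: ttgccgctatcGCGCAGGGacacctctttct
F22H10.2, chrX:16682160-16682190, minus strand: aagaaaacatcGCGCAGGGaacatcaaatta
cest-16, chrX:6296537-6296567, plus strand: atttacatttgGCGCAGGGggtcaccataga
xol-1, chrX:8036424-8036454, plus strand: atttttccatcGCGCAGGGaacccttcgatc
C41A3.2, chrX:5429579-5429609, plus strand: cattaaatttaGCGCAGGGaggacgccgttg
col-185, chrX:13514547-13514577, plus strand: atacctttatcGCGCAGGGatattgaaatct
B0302.2, chrX:17181353-17181383, minus strand: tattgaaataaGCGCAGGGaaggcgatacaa
dpy-23, chrX:4395604-4395634, plus strand: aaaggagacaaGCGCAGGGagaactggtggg
got-2.2, chrX:6250298-6250328, minus strand: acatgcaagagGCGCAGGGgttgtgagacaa
R11.3, chrX:16202507-16202537, minus strand: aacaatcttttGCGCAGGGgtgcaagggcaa
F20B6.9, chrX:4208728-4208758, plus strand: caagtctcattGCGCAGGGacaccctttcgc
Y15E3A.5, chrX:15340919-15340949, minus strand: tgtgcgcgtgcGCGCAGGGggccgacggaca
With every copy in the windows counted, the core was preceded by C in 7 members and followed by A in 10. The longer forms CGCGCAGGG and GCGCAGGGA were in 0.0204% and 0.0242% of the X tiles.

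In 2 members the window held the core more than once, and both windows are shown whole on the plus strand because the copies face in different ways.
cest-16, chrX:6296473-6296623, plus strand: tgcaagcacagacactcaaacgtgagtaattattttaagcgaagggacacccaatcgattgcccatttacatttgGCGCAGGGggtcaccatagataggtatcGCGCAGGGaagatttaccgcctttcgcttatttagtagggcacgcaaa
xol-1, chrX:8036361-8036511, plus strand: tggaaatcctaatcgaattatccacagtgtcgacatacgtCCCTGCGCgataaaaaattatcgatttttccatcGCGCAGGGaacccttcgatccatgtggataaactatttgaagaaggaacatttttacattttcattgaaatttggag
In the mom-1 intron, which lies nearest to the start of cest-16, both copies were on the plus strand. At xol-1 the copies were on opposite strands.

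Of the other genes of sex determination and dosage compensation looked up, only sdc-1 had a member within 5000 bp. Within 5000 bp of sdc-1, which encodes a component of the dosage compensation complex, 1 weak member was found (rank 2708), the same one as at ifa-3. No member was near sdc-2, whose promoter was bound, or near sex-1, an X signal element gene whose promoter was not. The gene fox-1 lies in the left-out segment, where the rule allows no members, and its promoter was not bound. Segment peaks near fox-1 outside promoters were not counted.

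The SKN-1 core was more common at the summits in its G form and less common in its A form. TGTCAT was within 75 bp in 41 of 260 members (15.8%, 11.8 to 20.7), in 14 of 259 windows 1000 bp away (5.41%) and in 8.99% of X tiles. It was at the summit only in 35 members and in the distant window only in 9. Autosomal peaks outside promoters held it in 13.3%, against 6.32% in their distant windows, and X promoter peaks in 11.3%, against 10.9%. The left-out segment peaks outside promoters held it in 18.4%, against 3.06%, and all optimal peaks in 11.1%, against 6.76%. TATCAT, which is richer in A and T, was in 16 members (6.15%), against 11.6% of distant windows and 10.5% of X tiles. All optimal peaks held TATCAT in 6.46%. Together, 54 members held either form (20.8%, 16.3 to 26.1), against 16.6% of the distant windows, 18.5% of X tiles and 16.4% of all optimal peaks. Summits were richer in G and C, with a median of 45.0% against 33.8% in the distant windows. The part of base composition in each share was not tested. By signal group, TGTCAT was in 7, 9, 7, 8 and 10 members, with no concentration at the strong end.

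The 6 strongest members with TGTCAT are shown, with the core in capitals and oriented to read TGTCAT, so that the flanking bases can be read.
F55G7.5, chrX:11937583-11937612, minus strand: cattttccaaaaTGTCATgtccaaaaaatc
nhr-120, chrX:6642873-6642902, minus strand: tgttctttcattTGTCATcatttcggtgtt
F09C8.1, chrX:16159482-16159511, minus strand: tgtgcgcgcattTGTCATcacctcccaccc
taf-3, chrX:16349192-16349221, plus strand: agaaagagagtgTGTCATccttcgaccgcc
atg-2, chrX:6805116-6805145, minus strand: tttatttttttcTGTCATgtgaaattgtct
C49F8.15, chrX:13358749-13358778, minus strand: gtttccgtcacgTGTCATatggacgtgcac
In the copies at F55G7.5, nhr-120 and F09C8.1, A or T preceded the core at both of the nearest positions. The members near F55G7.5 and nhr-120 were among the strongest in both replicates, and that at atg-2, an autophagy gene, was peak 567.

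Other motifs gave a mixed picture. The E-box CACGTG, bound by bHLH proteins, was in 23 members (8.85%, 5.97 to 12.9), against 2.32% of distant windows and 1.94% of X tiles. It was in 8.83% of autosomal peaks outside promoters, 8.06% of X promoter peaks and 4.66% of autosomal promoter peaks. The left-out segment peaks outside promoters held it in 5.10%, and all optimal peaks in 6.11%. GAGAGAGA was in 16 members (6.15%, 3.82 to 9.76), against 1.16% of distant windows and 0.710% of X tiles. It was in 16.7% of autosomal peaks outside promoters, 4.84% of X promoter peaks and 6.94% of autosomal promoter peaks. The left-out segment peaks outside promoters held it in 8.16%, and all optimal peaks in 9.16%. CTGCGTCT was also in 16 members (6.15%), and in 0.326% of X tiles. It was in 16.8% of autosomal peaks outside promoters, 8.47% of X promoter peaks and 12.7% of autosomal promoter peaks. The left-out segment peaks outside promoters held it in 11.2%, and all optimal peaks in 12.8%. TGATAA, a string that intestinal ELT factors bind, was in 22 (8.46%), below the 15.8% of the distant windows and 14.5% of X tiles. All optimal peaks held TGATAA in 8.47%. The antioxidant-type string TGACNNNGC was in 11 (4.23%), 1.54% of the distant windows and 2.85% of X tiles. Its share was close to that of the members in all optimal peaks (3.87%), autosomal peaks outside promoters (3.87%) and X promoter peaks (4.03%).

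The remaining strings stood on either side of their level in the distant windows. GGGCGG, a GC box, was in 17 members (6.54%), 2.32% of distant windows and 1.62% of X tiles. GAANNTTC, of heat shock type, was in 12 (4.62%), 8.11% of distant windows and 8.55% of tiles. A run of 9 T was in 15 (5.77%), 10.8% of distant windows and 9.08% of tiles, so both of these strings were less common at the summits. The bZIP string TGANTCA was in 11 members (4.23%), 6.95% of distant windows and 5.02% of tiles. Another, TGACGT, was in 14 (5.38%), 3.09% of distant windows and 5.08% of tiles. The forkhead-type GTAAACA was in 7 (2.69%), 3.47% of distant windows and 2.34% of tiles. TGTTTGC, of the same type, was in 13 (5.0%), 3.86% of distant windows and 2.96% of tiles. A SKN-1 core of either form after 2 bases of A or T was in 28 members (10.8%), 6.95% of distant windows and 8.71% of tiles. Over all optimal peaks the shares were 8.09% for GGGCGG, 6.31% for GAANNTTC, 5.28% for the T run and 4.25% for TGANTCA. They were 6.60% for TGACGT, 3.42% for GTAAACA, 8.04% for TGTTTGC and 9.39% for the SKN-1 core after A or T.

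Of the 2080 possible 6-mers, the 5 with the largest excess at the summit over the distant window were led by GAGAGA, found in 75 members against 24. The next was AGAGAG, in 59 members against 12 distant windows. After it came AGAGAC, in 48 members against 5 distant windows, and these first 3 overlap each other in sequence. The fourth was CACATG, in 48 members against 11 distant windows. The fifth was CCTCTC, in 44 members against 9 distant windows. As 6-mers, the repeat strings were less common in the members than in autosomal peaks outside promoters and in X promoter peaks. Autosomal promoter peaks and the left-out segment peaks were not counted for the 6-mers. The longer GAGAGAGA was in 6.15% of members and 4.84% of X promoter peaks. GAGAGA was in 29.0% of the 259 members with a distant window, against 45.5% of autosomal peaks outside promoters and 38.3% of X promoter peaks. For AGAGAG these shares were 22.8%, 43.8% and 31.9%, and for AGAGAC they were 18.5%, 32.9% and 24.2%. For CCTCTC they were 17.0%, 19.8% and 23.8%. CACATG alone among the 5 was higher in the members, at 18.5%, against 11.5% and 10.5%, and none of these differences was tested. The 5 were picked by their excess in these same members, which can raise the members' shares.

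**Figure D4:**
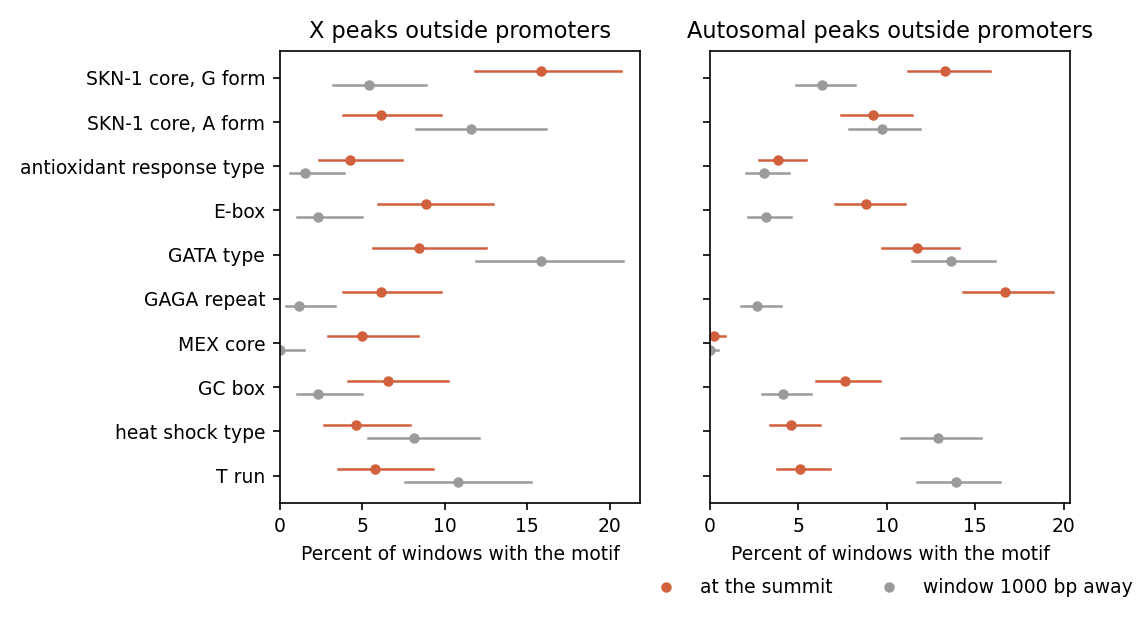
Percent of 151 bp windows holding each motif on either strand, at the summit (orange) and 1000 bp away (grey), with 95% Wilson intervals as lines, for X peaks (left) and autosomal peaks (right) outside promoters. The MEX core stands at 5.0% at X summits and 0.242% at autosomal summits, and the GAGA repeat at 6.15% and 16.7%.

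**Figure D5:**
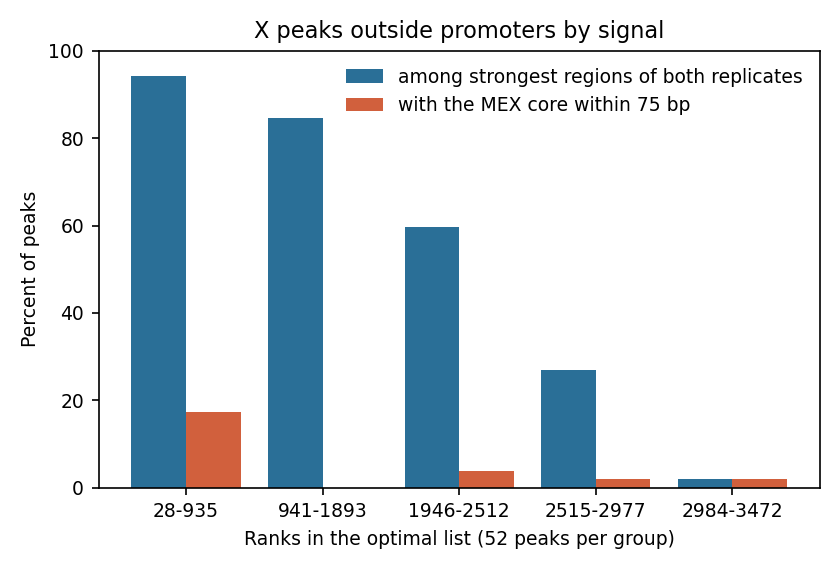
Percent of X peaks outside promoters, in 5 groups of 52 by rank in the optimal list (x axis), that lay among the strongest regions of both replicates (blue) and that held the MEX core within 75 bp (orange). Recovery in both replicates fell from 94.2% to 1.92%, and the MEX core from 17.3% to 1.92%, with 0 in the second group.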

How the data were processed

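The series holds ChIP-seq of 2 replicates that the labels call biological, with no other group. The authors deposited narrowPeak-type lists on ce11 with a signal value per region: 1 list per replicate (30000 regions each), a pooled list (27729) and the optimal list (3484). Per the deposited readme files, each replicate list comes from that replicate's alignment and a control alignment shared by both. Neither labels nor headers used here name an aligner, a peak caller, a threshold for the optimal list or a read depth. Normalization of the signal is likewise unknown, so it served only to rank regions. Lists on ce10 were not used, and no coordinates were converted.

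Summits were annotated with Ensembl release 115 (WBcel235), using starts of protein-coding transcripts only; 16224 of 16255 plus-strand coding sequences (99.8%) began with ATG in the genome used. Sequences are from the RefSeq genome of the same build. Motifs were searched within 75 bp on both strands. Distant windows were 1000 bp away, and tiles cover all sequence outside promoters. Shares have Wilson 95% intervals; a count of 0 is given the limit of 3 counts. Intervals cover counting error only. Scripts used Python 3.11.15, numpy 2.4.6 and scipy 1.17.1, and were tested on simulated data.

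The members and lists were chosen with earlier results of these data known. Genes named are the 25 strongest members, up to 10 per rarer class, the 3 genes with most members, the longest runs, peaks nearest the rule's edges, the 5 largest replicate differences, the 5 farthest members, the first 5 6-mers, and xol-1, sex-1, fox-1, sdc-1 and sdc-2. Members shown for a motif or a tRNA gene were chosen after their values were seen. Alternatives were other promoter windows, the stronger part of the list, each replicate alone, other distances and the segment kept in.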

Additional observations from a re-analysis of the deposited data

How the results depend on the processing

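The intergenic share stayed within its interval under each alternative run. The number of members was 318 and 198 with the narrower and wider promoter windows, 358 with the segment kept in, 244 with 0 to 4 Mb left out, and 254 and 260 on the list of replicate 1 or 2 alone. With the stronger part of the optimal list alone (50% of it by signal), members fell to 92, recovery in both replicates rose to 92.4%, the median distance to a start was 2590 bp, the share with a bound nearest promoter was 18.5%, members per Mb were 7.77, the share with a neighbour within 2000 bp was 16.3%, and the MEX core share, an alternative added after the data were seen, was 9.78%. Promoter windows of 500 bp upstream and 100 bp downstream gave a median distance of 1780 bp and a bound nearest promoter in 23.0%; windows of 2000 bp upstream gave 2712 bp and 35.4%. Requiring summits within 50 bp lowered recovery in both replicates to 41.9%. Keeping the segment in gave 25.8 members per Mb. A window of 50 bp either side put a SKN-1 core in 15.8% of members, and 100 bp in 27.7%. A neighbour was found within 1000 bp of 15.0% of members and within 5000 bp of 54.6%. On the list of 1 replicate alone, the SKN-1 core share was 20.1% to 26.5% and the MEX core share 4.23% to 4.72%. No paired analysis was possible because there is 1 group. The read depth behind the peaks is unknown.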

Other observations

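Allowing 1 mismatch in the MEX core, a search added after the data were seen, 12 of the 25 strongest members held it. Over all members it was in 38 of 260 (14.6%, 10.8 to 19.4), against 2.32% of distant windows and 1.82% of X tiles. It was in 8.83% of autosomal peaks outside promoters, 11.3% of X promoter peaks and 9.36% of all optimal peaks. Among the left-out segment peaks outside promoters it was in 15 of 98 (15.3%). The interval for the members and that for X promoter peaks overlapped.

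The string GGGCAA, read as TTGCCC on the other strand, was noticed in the printed windows of the strongest members and counted afterwards. It was in 6 of the 10 strongest members, in 3 of these more than once, and in 8 of the 25 strongest. In the 5 signal groups it was in 10, 1, 6, 0 and 4 of 52 members. Over all members it was in 21 of 260 (8.08%), against 3.47% of distant windows and 3.62% of X tiles. It was in 8.16% of the left-out segment peaks outside promoters, 6.45% of X promoter peaks, 4.72% of autosomal peaks outside promoters and 4.71% of all optimal peaks. Of the 13 members with the MEX core, 6 held it. Because the string was picked from the strongest windows, their counts describe those windows only.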
